A study of Arabidopsis thaliana with 11 samples.

Results

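The 10 genes followed here carry the decision to flower and were read in 6 genotypes of Arabidopsis thaliana seedlings. They are CO, FT, TSF, SVP, AGL24, SOC1, SPL3, FUL, AP1 and LFY. The set was chosen by gene identifier as the flowering time integrators and meristem identity genes of the table, 10 of its 33602 genes, by a rule that uses no measured value. Earlier results of these data were, however, known when this set and the lists of other flowering genes below were chosen. All 10 were found, and 6 of them (CO, FT, SVP, AGL24, SOC1 and SPL3) reached at least 1 RPKM in at least 2 genotypes, the minimum used for comparisons, as did 19669 genes in all. RPKM scales reads by gene length in kilobases and by the size of the library in mega-reads.

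The plants were whole 11-day-old seedlings of ecotype Columbia, kept in continuous light on medium with sucrose, so no day length contrast is in the data. MI12 carried an artificial miRNA against both PTB1 and PTB2, and MI3 one against PTB3. OE1, OE2 and OE3 overexpressed PTB1, PTB2 and PTB3, and WT was wild-type Columbia. PTB proteins bind pyrimidine-rich RNA and act in splicing, which was the main readout of the study, while the values here are totals per gene that do not separate splice forms. Which promoter drives a transgene, and how many independent transformants stand behind a line, is not stated in the labels. The labels name 11 libraries, 1 for MI3 and 2 for each other genotype, and the table has a single value per gene and genotype. There is therefore no replicate error, no test and no p-value below, and each difference describes these libraries.

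Flowering in Arabidopsis is set by inputs that meet at a few genes. In long days CO, a B-box protein made in leaf veins, activates FT and its close relative TSF, small mobile proteins that travel through the phloem to the shoot tip and there join the bZIP protein FD. In the shoot apex SOC1 and AGL24, both MADS transcription factors, pass the signal to LFY, AP1 and FUL, which give new primordia floral identity. SVP, also a MADS factor, represses FT and SOC1, and SPL3, a target of miR156, links flowering to plant age.

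The depth recovered from low values was 46.1 mega-reads in MI3 and 79.2 (OE2) to 95.8 (OE1) in the other genotypes. The targeted PTB transcripts stood at 0.182 to 0.444 times WT in the 2 miRNA lines and at 3.35 to 63.8 times WT in the 3 overexpressors, as their labels say. Of the tissue markers, the leaf antenna gene LHCB3 lay between 935 and 1579 RPKM and the phloem sucrose transporter SUC2 between 44.5 and 52.5 RPKM. The shoot meristem gene STM lay between 1.45 and 1.97 RPKM, while WUS was at no more than 0.026 RPKM and at 0 in MI3, OE1 and OE3. Of the floral organ markers, AG was at no more than 0.045 RPKM, AP3 at no more than 0.226 RPKM and PI between 0.524 RPKM (OE2) and 1.12 RPKM (MI3). In bulk tissue, fewer cells that express a gene and less RNA in each such cell cannot be told apart. Counting intervals below are 95% exact intervals on the recovered reads. They hold counting error alone, and between MI12 and WT 63.5% of 19490 genes had an interval for the ratio that left out 1, so such an interval is no measure of the spread between plants.

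The 10 genes spanned a wide range in WT. Per kilobase of gene span SVP was highest at 12.4 RPKM, followed by SOC1 at 9.31, AGL24 at 4.59, CO at 3.85, SPL3 at 1.34 and FT at 0.618 RPKM. FUL stood at 0.329 RPKM, LFY at 0.049, TSF at 0.038 and AP1 at 0.028 RPKM. Most of these genes have long introns, and the deposited values were divided by the whole span, introns included: annotated exons made up 37.1% of the FT span and 91.5% of the SPL3 span. Per kilobase of exon in the longest annotated transcript, FT had 1.67 and SPL3 1.47 reads per mega-read in WT, which reverses their order. These values rest on 151 (FT) and 134 (SPL3) reads. The reversal was not set against counting error.

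**Figure D1:**
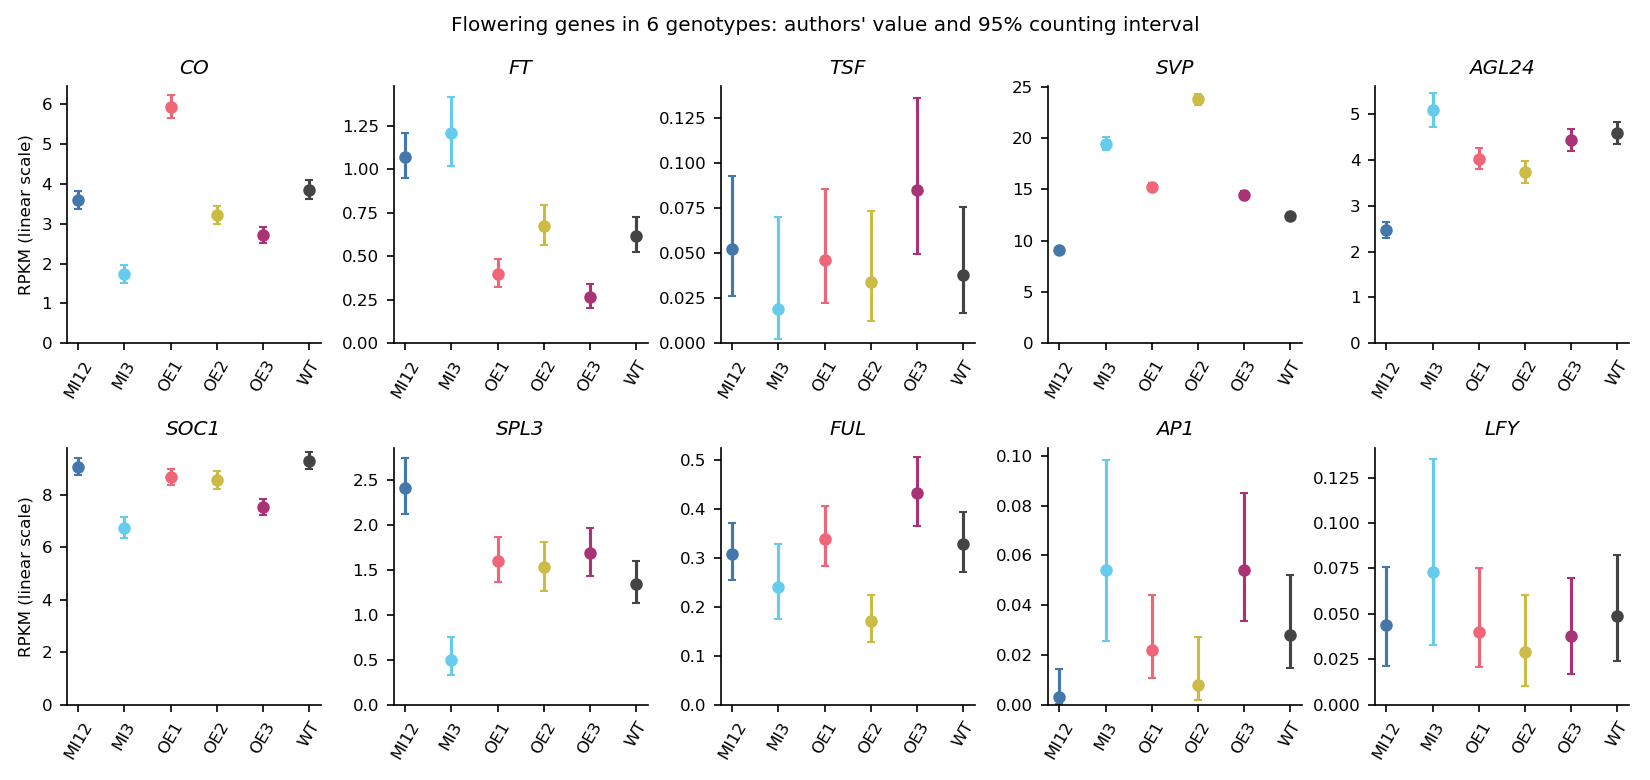
RPKM of each of the 10 genes (vertical axes, linear, each with its own range from 0) in MI12, MI3, OE1, OE2, OE3 and WT; points are the authors' values and bars 95% counting intervals. CO peaks in OE1, SVP in OE2, SPL3 in MI12 and FT in both miRNA lines, while TSF, AP1 and LFY rest on 20 reads or fewer.

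CO, the photoperiod activator of FT (AT5G15840, TAIR10.1 chr5:5170162-5173085, minus strand), was highest with raised PTB1 and lowest with lowered PTB3. It stood at 3.59 RPKM in MI12 and 1.73 in MI3, and at 5.93 in OE1, 3.21 in OE2 and 2.71 in OE3, against 3.85 RPKM in WT. OE1 lay alone above WT, with a ratio of 1.54 (counting interval 1.42 to 1.67), and MI3 lay lowest, with a ratio of 0.450 (0.388 to 0.518). On the scale of log2(RPKM + 1), on which all log2 differences here are given, these were 0.51 and -0.83. MI12 and WT, neighbours in the order of levels, had an interval that held 1. A gene annotated on the other strand, AT5G15843, lies within the CO span and has no value here, and whether the counting used strand is not known here.

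None of the 19 other genes of the photoperiod pathway, all compared, was 2-fold apart in any line, a rule that called 0.442% (OE2) to 4.65% (MI3) of all compared genes. A ratio to WT of 1.5 was reached upward by 1 of them in MI12 (2.46% of all compared genes) and by 2 in MI3 (12.5%). Downward it was reached by 1 in MI3 (7.92%). None reached it either way in OE1, OE2 or OE3. In those 3 lines 2.4% (OE2) to 4.5% (OE3) of all compared genes did so upward, and 3.25% (OE2) to 7.13% (OE1) downward. In MI3 the list median was 0.29, against 0.05 over all compared genes, and in OE1 it was 0.16, against -0.01 over all compared genes. CDF1, a DOF repressor of CO transcription, was at 7.34 RPKM in MI12 and 9.92 in MI3, and at 5.55 in OE1, 4.78 in OE2 and 6.51 in OE3, against 6.23 RPKM in WT. MI3, lowest for CO, was thus highest for CDF1, but OE2, lowest for CDF1, had CO below WT as well. COL2, a relative of CO, was at 38.2 RPKM in MI12 and 25.9 in MI3, and at 34.7 in OE1, 17.8 in OE2 and 25.8 in OE3, against 23.6 RPKM in WT. On the log2 scale COL2 lay farther from WT than CO did in MI12 (0.67 and -0.08) and in OE2 (-0.39 and -0.20).

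FT (AT1G65480, chr1:24331373-24333999, plus strand), the florigen gene, was above WT in both miRNA lines and below it in OE1 and OE3. Its level was 1.07 RPKM in MI12 and 1.21 in MI3, and at 0.399 in OE1, 0.673 in OE2 and 0.263 in OE3, against 0.618 RPKM in WT. These rest on 267, 146, 100, 140 and 62 reads in the 5 lines and 151 reads in WT. The ratio to WT was 1.74 in MI12 (interval 1.42 to 2.13) and 1.96 in MI3 (1.54 to 2.46). It was 0.646 in OE1 (0.494 to 0.833) and 0.426 in OE3 (0.312 to 0.577). OE2 could not be told from WT by counting error, with an interval of 0.858 to 1.38, nor could MI3 be told from MI12. FT met the minimum of 1 RPKM through MI12 and MI3 alone, so its place among the compared genes already required high values there. The orders of FT and CO differed: MI3 had the highest FT and the lowest CO, and OE1 the highest CO with FT below WT.

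TSF (AT4G20370, chr4:11000771-11003010, minus strand), the closest relative of FT, was barely detected. It had 11 reads in MI12 and 2 in MI3, with 10 in OE1, 6 in OE2 and 17 in OE3, against 8 in WT, or 0.019 to 0.085 RPKM over the lines and 0.038 RPKM in WT. All neighbours in its order of levels had counting intervals that held 1. Between the ends of that order, MI3 was at 0.224 times OE3, with an interval of 0.026 to 0.962. Among the partners and relatives of FT, FD was at 2.38 RPKM (OE2) to 3.25 RPKM (OE3) over the lines and 2.38 RPKM in WT. MFT, a relative best known from seeds, was at 0.667 RPKM in MI12 and 1.49 in MI3, and at 0.803 in OE1, 0.532 in OE2 and 1.52 in OE3, against 0.567 RPKM in WT. The ratio to WT was 2.63 in MI3 (interval 2.13 to 3.26) and 2.68 in OE3 (2.22 to 3.24). MFT met the minimum of 1 RPKM through these 2 columns alone, so its place among the compared genes already required them to be high. ATC, a relative of the repressor TFL1, ranged over the lines between 8.05 RPKM (OE1) and 15.0 RPKM (MI3), against 12.2 RPKM in WT. None of the 5 compared genes of that list was 2-fold apart from WT on the log2 scale with its pseudocount of 1 in any line, beside the same 0.442% to 4.65% of all compared genes.

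SVP (AT2G22540, chr2:9579647-9583901, plus strand), the MADS repressor of FT and SOC1, was lowest in MI12 and highest in OE2. It stood at 9.12 RPKM in MI12 and 19.4 in MI3, and at 15.3 in OE1, 23.8 in OE2 and 14.4 in OE3, against 12.4 RPKM in WT. The ratio to WT was 1.92 in OE2 (interval 1.85 to 1.99), 1.57 in MI3 (1.51 to 1.64) and 0.738 in MI12 (0.706 to 0.770). With 3672 reads or more in each column, every pair of neighbours in its order had an interval without 1. OE1, at 1.23 times WT, and OE3, at 1.16 times WT, were above WT but below the median of the other 4 lines, by -0.14 and -0.25 on the log2 scale. In MI12 SVP was below WT with FT above it, whereas in MI3 both were above WT.

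AGL24 (AT4G24540, chr4:12670897-12674106, minus strand), a MADS factor that promotes flowering together with SOC1, stood apart in MI12. It was at 2.48 RPKM in MI12 and 5.09 in MI3, and at 4.03 in OE1, 3.74 in OE2 and 4.44 in OE3, against 4.59 RPKM in WT. The ratio of MI12 to WT was 0.540 (interval 0.493 to 0.590), a log2 difference of -0.69, while the other 4 lines lay between 0.815 (OE2) and 1.11 (MI3) times WT. SOC1 (AT2G45660, chr2:18807505-18811125, minus strand), the integrator of the photoperiod, age and temperature inputs, varied least among the 6 compared genes. It was at 9.06 RPKM in MI12 and 6.75 in MI3, and at 8.68 in OE1, 8.56 in OE2 and 7.54 in OE3, against 9.31 RPKM in WT. No line was above WT. The 2 lowest were the PTB3 lines, at 0.725 times WT in MI3 (interval 0.677 to 0.776) and 0.811 times WT in OE3 (0.768 to 0.855). From WT down through MI12, OE1 and OE2, each level and the next had an interval that held 1, but against WT itself the intervals of OE1 (0.887 to 0.981) and OE2 (0.872 to 0.970) left it out. The 6 MADS genes related to SOC1 all missed the minimum for comparison, and the highest of them, AGL42, was at no more than 0.958 RPKM.

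**Figure D2:**
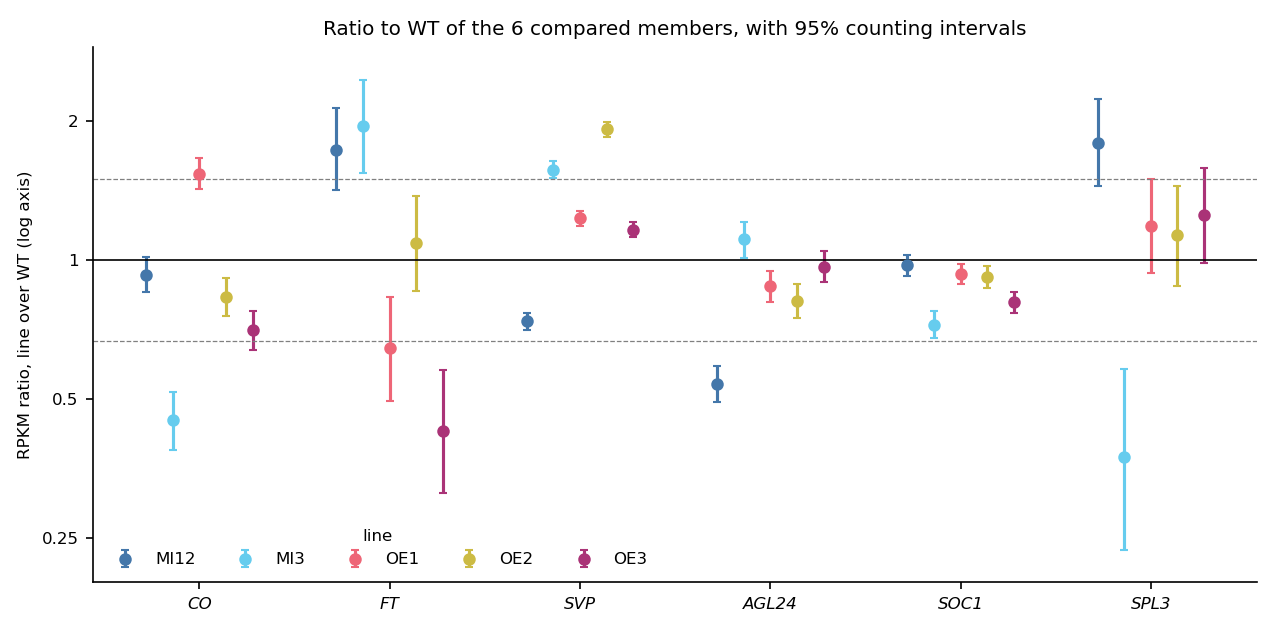
RPKM ratio of each line to WT (log axis) for the 6 compared genes, with 95% counting intervals; the solid line marks a ratio of 1 and the dashed lines 1.5 and its inverse. FT is above WT in MI12 and MI3 and below it in OE1 and OE3, SPL3 parts the 2 miRNA lines, and SOC1 keeps between 0.725 and 0.974 times WT.

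SPL3 (AT2G33810, chr2:14305001-14306072, plus strand), a small activator of FUL, LFY and AP1, differed most between the 2 miRNA lines. It stood at 2.41 RPKM in MI12 and 0.502 in MI3, and at 1.59 in OE1, 1.52 in OE2 and 1.69 in OE3, against 1.34 RPKM in WT. The ratio to WT was 1.80 in MI12 (interval 1.45 to 2.23), from 245 and 134 reads, and 0.374 in MI3 (0.235 to 0.580), from 25 and 134 reads. OE1, OE2 and OE3 had intervals against WT that held 1. An antisense gene, AT2G33815, overlaps nearly the whole SPL3 span. It was at 0.252 RPKM in MI12 and 0.103 in MI3, and at 0.228 in OE1, 0.096 in OE2 and 0.160 in OE3, against 0.154 RPKM in WT, and without strand the reads of both cannot be told apart.

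SPL3 is cut and translationally repressed through a miR156 site, and the sequences below, read from the RefSeq TAIR10.1 genome, show what it shares with the other SPL genes measured here. The mature miR156 of all 6 loci, MIR156A to MIR156F, has the same 20 bases, and its capitals mark the seed, bases 2 to 8. In the sites the capitals mark the letters that face the seed. The site of SPL2 recurs letter for letter in SPL6, SPL9, SPL10, SPL11, SPL13A, SPL13B and SPL15.
miR156a-5p: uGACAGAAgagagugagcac
SPL3 site: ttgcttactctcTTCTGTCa
SPL4 site: ctgctctctctcTTCTGTCa
SPL5 site: ccgctctctctcTTCTGTCa
SPL2 site: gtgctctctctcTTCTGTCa
The sites of SPL3 (chr2:14305878-14305897), SPL4 (chr1:19807090-19807109) and SPL5 (chr3:5140598-5140617) lie in the 3′ UTR and have 2, 2 and 3 mismatches to the full complement of the miRNA. The SPL2 site (chr5:17360758-17360777) and its 7 copies lie in coding sequence and have 1 mismatch. None of the 11 sites has a mismatch facing the seed.

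In MI3 several SPL genes lay below WT together with SPL3. Of the 10 other SPL genes, all compared, 5 were lower than WT by a ratio of 1.5 or more, as were 7.92% of all compared genes, and none was higher by that ratio, as were 12.5%. The list median was -0.38, against 0.05 over all compared genes. SPL5 was at 0.633 RPKM in MI3, against 2.86 RPKM in WT, a ratio of 0.221 with an interval of 0.165 to 0.291. It was the one member at least 2-fold lower on the log2 scale, beside 4.65% of all compared genes 2-fold apart in either direction. SPL4 was at 0.544 times WT, SPL2 at 0.554 times, and SPL13A and SPL13B, near-identical copies whose reads may be shared, at 0.545 and 0.541 times WT. SPL9 was at 1.61 RPKM in MI3, against 1.53 RPKM in WT. SPL3 and its 2 relatives with a site in the 3′ UTR were thus all low in MI3, as were 3 genes with the site in coding sequence, while SPL6, SPL9, SPL10, SPL11 and SPL15 were not past that ratio. In the other 4 lines the medians of the 10 genes lay between -0.14 (MI12) and 0.05 (OE3). SPL5 in OE3, with 1.43 RPKM against 2.86 RPKM in WT, was the one member past the same ratio, downward. Of all compared genes 2.85% (MI12), 7.13% (OE1), 3.25% (OE2) and 3.31% (OE3) were lower by that ratio. Between 2.4% (OE2) and 4.5% (OE3) were higher by it.

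**Figure D3:**
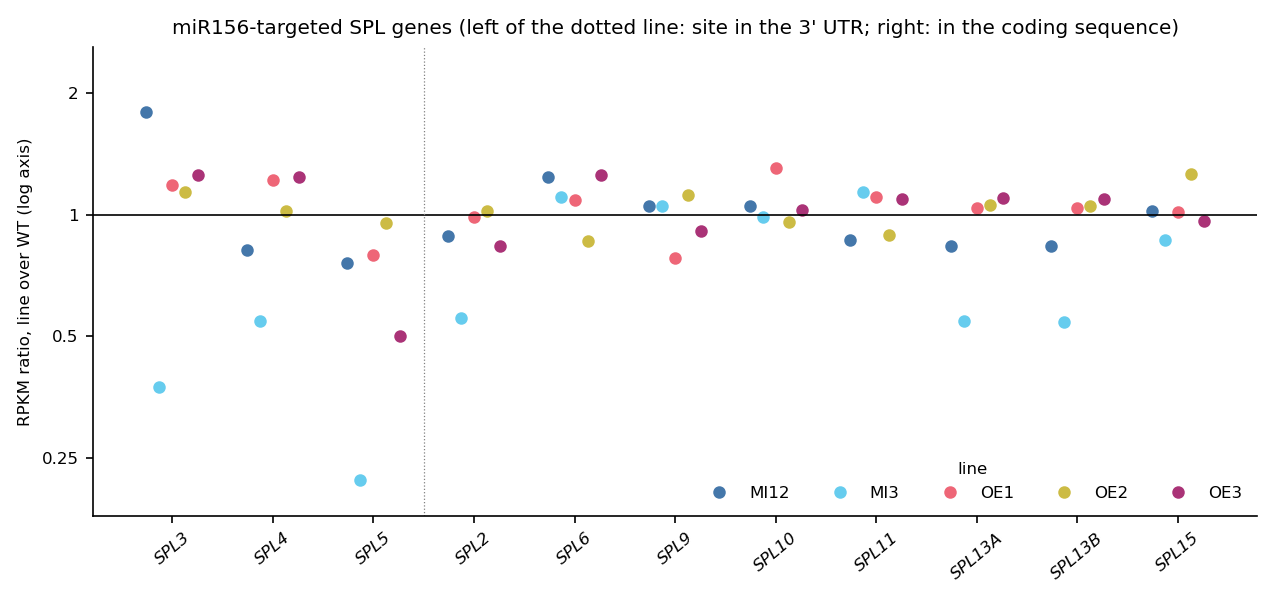
RPKM ratio of each line to WT (log axis) for SPL3 and 10 other genes with a miR156 site; genes left of the dotted line have the site in the 3′ UTR, those to its right in coding sequence. MI3 is lowest for SPL3, SPL4, SPL5, SPL2, SPL13A and SPL13B, and SPL3 in MI12 is the highest point of the plot at 1.80.

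Transcripts of the miR156 loci themselves rest on few reads, and precursor reads do not measure the mature miRNA. MIR156A was at 3.94 RPKM in MI12 and 8.82 in MI3, and at 5.40 in OE1, 5.76 in OE2 and 4.03 in OE3, against 4.53 RPKM in WT. Its ratio in MI3 was 1.95 with an interval of 1.29 to 2.92. MIR156D was at 2.72 RPKM in MI3, against 0.865 RPKM in WT, with an interval of 1.38 to 8.71 for the ratio of 3.15. It was above WT in MI12 and OE2 as well, with ratios of 2.25 (1.06 to 5.92) and 2.51 (1.14 to 6.50), although no gene of the SPL list was past the ratio of 1.5 downward in these lines. The 3 miR156 or miR172 loci, of 11, that passed the minimum were each at least 1.5 times WT in MI3, beside 12.5% of all compared genes. So were 2 in MI12 (2.46%), 1 in OE1 (2.5%), 2 in OE2 (2.4%) and 1 in OE3 (4.5%). In OE1 1 locus was lower by that ratio (7.13%). MIR156C and MIR156D, at 0.765 and 0.865 RPKM in WT, met the minimum of 1 RPKM through the lines alone. For these loci nothing is read from the upward shares. The third locus, MIR156C, rests on 7 reads in MI3 and 7 in WT, with an interval of 0.604 to 6.74. MI3 also had a higher root marker sum, 1594 RPKM for CASP1 and PYK10, against 636 RPKM in WT, with CASP1 alone at 10.9 RPKM in MI3 and 9.99 RPKM in WT. The 4 shoot meristem markers summed to 8.23 RPKM in MI3, against 5.66 RPKM in WT, and the 3 flower markers to 1.39 RPKM in MI3, against 0.834 RPKM in WT. Most of each sum came from 1 gene. KNAT1 was at 6.21 RPKM in MI3 and 4.09 RPKM in WT, and PI at 1.12 RPKM in MI3 and 0.734 RPKM in WT. The part of the tissues behind these markers in the differences above was not tested.

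The meristem identity genes were at or near the bottom of the scale in every genotype. FUL (AT5G60910, chr5:24502434-24506269, minus strand), which shares roles with AP1 in the shoot apex, was at 0.308 RPKM in MI12 and 0.241 in MI3, and at 0.339 in OE1, 0.171 in OE2 and 0.433 in OE3, against 0.329 RPKM in WT. OE2, with 52 reads against 117 in WT, had a ratio of 0.520 and an interval of 0.369 to 0.729. OE3, with 148 reads, had a ratio of 1.32 and an interval of 1.02 to 1.69. Each pair of neighbours in the order of FUL levels had an interval that held 1. AP1 (AT1G69120, chr1:25982294-25986349, minus strand), the floral meristem and sepal identity gene, had 1 read in MI12 and 10 in MI3, with 9 in OE1, 3 in OE2 and 20 in OE3, against 11 in WT. Its ratio in MI12 was 0.107 with an interval of 0.002 to 0.614, and the intervals of the other 4 lines held 1. LFY (AT5G61850, chr5:24844248-24846989, plus strand), the master regulator of floral fate, had 11 reads in MI12 and 9 in MI3, with 11 in OE1, 6 in OE2 and 9 in OE3, against 12 in WT. No difference of LFY was detectable at this depth. Of the 11 other meristem identity and floral organ genes, 2 were compared, SEP3 and SEP4, both MADS cofactors of floral organ identity. SEP3 lay between 1.38 RPKM (OE1) and 2.92 RPKM (MI12) over the lines, against 2.20 RPKM in WT, and SEP4 between 1.66 RPKM (MI12) and 2.66 RPKM (OE1), against 2.70 RPKM in WT.

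As a list, repressors of FT had a median near WT in each line. Of 15 such genes 13 were compared, and the list median lay between -0.04 (OE2) and 0.17 (MI3). FLC, the vernalization-responsive repressor, was the one member 2-fold apart on the log2 scale, and only in OE1, beside 0.91% of all compared genes. It was at 0.033 RPKM in MI12 and 0.289 in MI3, and at 1.74 in OE1, 1.02 in OE2 and 0.176 in OE3, against 0.249 RPKM in WT. FLC lay above WT in OE1, with a ratio of 6.98 (interval 5.86 to 8.41), and in OE2, with 4.11 (3.41 to 5.01). It lay below WT in MI12, with 0.133 (0.078 to 0.216). FLC met the minimum of 1 RPKM through OE1 and OE2 alone, so its place among the compared genes already required high values there. Of the list, 1 gene reached a ratio of 1.5 upward in MI12, beside 2.46% of all compared genes. In OE1 and OE2 FLC alone did so, and nothing is read from the shares there. Downward the ratio was reached by 1 gene in MI12 (2.85%), 2 in OE2 (3.25%) and 1 in OE3 (3.31%). MAF1 (also FLM), the temperature-responsive repressor, and TEM1, a direct repressor of FT, were picked out after their values were seen. MAF1 was at 8.71 RPKM in MI12 and 5.76 in MI3, and at 3.98 in OE1, 3.65 in OE2 and 5.47 in OE3, against 5.003 RPKM in WT. It ran opposite to FLC in MI12, OE1 and OE2, and also in OE3. There MAF1 was at 1.09 times WT (interval 1.03 to 1.16) and FLC at 0.707 times (0.538 to 0.922). In MI3 both were above WT, FLC with an interval that held 1 (0.877 to 1.545). TEM1 was at 36.6 RPKM in MI12 and 44.1 in MI3, and at 40.001 in OE1, 24.5 in OE2 and 25.7 in OE3, against 48.3 RPKM in WT.

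Upstream of FLC, the 8 genes of the autonomous pathway were all compared. None was 2-fold apart in any line, beside 0.442% to 4.65% of all compared genes. FLK in MI12, at 1.58 times WT, was the one member past a ratio of 1.5, beside 2.46% of all compared genes upward in MI12. FLK, an RNA-binding protein that lowers FLC, was at 20.0 RPKM in MI12 and between 11.3 RPKM (MI3) and 13.0 RPKM (OE1) in the other lines, against 12.6 RPKM in WT. FPA, another RNA-binding protein of the pathway, was at 7.68 RPKM in MI12 and 7.91 in MI3, and at 11.0 in OE1, 11.4 in OE2 and 8.56 in OE3, against 8.76 RPKM in WT. Of 6 shoot meristem genes 3 were compared, none of them 2-fold apart in any line, beside the same 0.442% to 4.65% of all compared genes. A ratio of 1.5 was reached by 1 of them, KNAT1 in MI3, at 1.52 times WT (interval 1.40 to 1.65). In MI3 12.5% of all compared genes reached it upward. KNAT1, a homeobox gene of the shoot apex, was at 3.56 RPKM in MI12 and 6.21 in MI3, and at 3.46 in OE1, 3.24 in OE2 and 4.78 in OE3, against 4.09 RPKM in WT. PNY, its partner, lay between 3.81 RPKM (MI12) and 5.002 RPKM (MI3), against 4.41 RPKM in WT.

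Lowered PTB1 and PTB2 came with more FT and SPL3 and less AGL24 transcript. In MI12 against WT none of the 6 compared members was 2-fold apart on the log2 scale, as were 0.503% of all compared genes. The ratio of 1.5, set after the values were seen because the pseudocount shrinks differences of low genes, was reached upward by SPL3 and FT (2.46% of all compared genes) and downward by AGL24 (2.85%). For FT nothing is read from that share, since MI12 is one of the 2 columns through which it met the minimum. The middle 95% of all compared genes lay between -0.49 and 0.43 in this comparison, so that SPL3 at 0.54 and AGL24 at -0.69 were outside that range and FT at 0.36 within it. SVP, lower at 0.738 times WT, was also within that range at -0.40, farther from WT on the log2 scale than FT. The 2 leaf markers summed to 3377 RPKM in MI12, against 1888 RPKM in WT, the highest sum of the 6 genotypes, and their part in these differences was not tested.

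Lowered PTB3, in the line with a single library, came with more FT and SVP and less CO and SPL3. In MI3 against WT no member was 2-fold apart, beside 4.65% of all compared genes. FT and SVP reached a ratio of 1.5 upward, as did 12.5% of all compared genes, and CO and SPL3 downward, as did 7.92%. For FT, MI3 is again a column through which it met the minimum, and nothing is read from that share. With a pseudocount of 0.1 in place of 1, CO at -1.11 and SPL3 at -1.26 were past 2-fold. MI3 differed from WT more than the other lines did across the whole table, and no member lay outside the middle 95% of all compared genes, -0.93 to 1.01. A difference of this one library from the rest and a difference of the genotype cannot be told apart.

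Raised PTB1 came with more CO and less FT. In OE1 against WT no member was 2-fold apart, beside 0.91% of all compared genes, and CO at 0.51 was above the middle 95% of all compared genes, -0.67 to 0.47, with FT at -0.21 within it. SVP, higher at 1.23 times WT, was within it as well at 0.28, farther from WT on the log2 scale than FT. CO reached the ratio of 1.5 upward (2.5% of all compared genes) and FT downward (7.13%). Raised PTB2 came with more SVP. In OE2 against WT no member was 2-fold apart, beside 0.442% of all compared genes, but SVP at 0.89 lay well above the middle 95%, -0.49 to 0.43. SVP was also the one member at a ratio of 1.5 upward (2.4% of all compared genes), and none was at that ratio downward (3.25%). Raised PTB3 came with less FT. In OE3 against WT no member was 2-fold apart, beside 1.03% of all compared genes, none reached a ratio of 1.5 upward (4.5%), and FT alone reached it downward (3.31%). All 6 members lay within the middle 95% of all compared genes, -0.55 to 0.57, with FT at -0.36 and CO, at -0.39, slightly farther from WT on the log2 scale. All 5 comparisons share the WT libraries, so an unusual WT value would show in each of them.

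**Figure D4:**
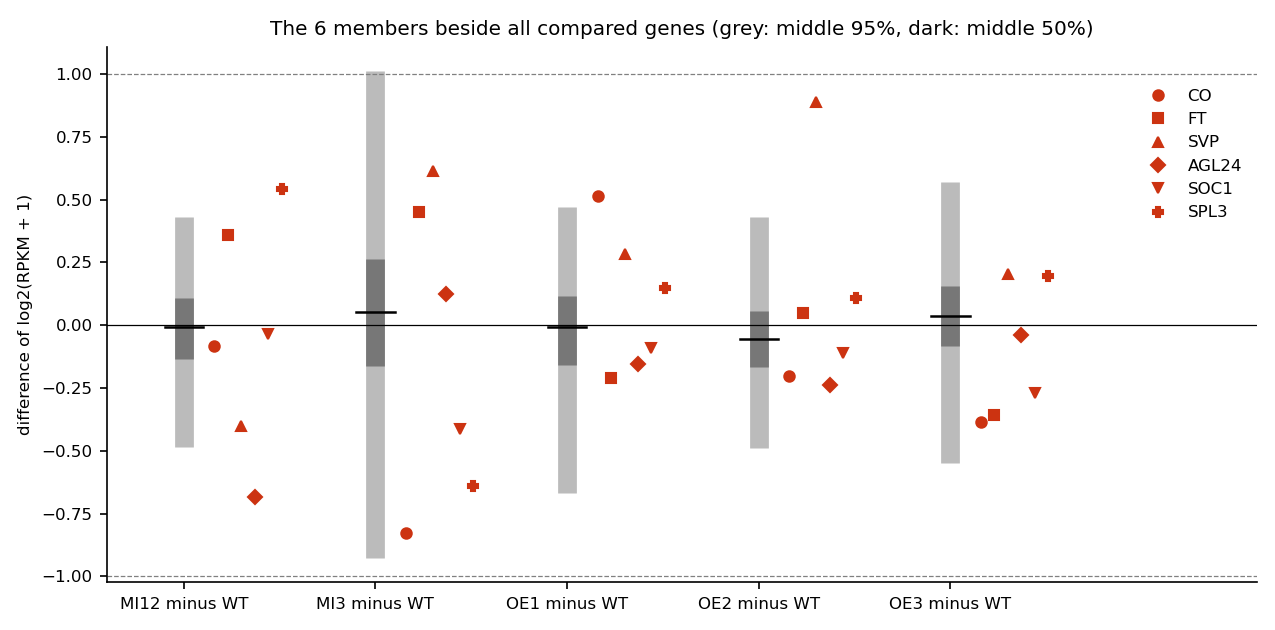
Difference of log2(RPKM + 1), line minus WT, of the 6 compared genes (red symbols) beside the 19669 compared genes (light bar the middle 95%, dark bar the middle 50%, black line the median). SVP in OE2 at 0.89 lies farthest beyond the light bar, the MI3 bar is the widest, and no symbol reaches the dashed lines at 1 and -1.

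Comparisons without WT gave wider gaps for some of the genes. Between the PTB3 lines, MI3 against OE3, FT was at 1.21 RPKM in MI3 and 0.263 RPKM in OE3, a ratio of 4.60 with an interval of 3.37 to 6.25. SPL3 was at 0.502 RPKM in MI3 and 1.69 RPKM in OE3, a ratio of 0.298 with an interval of 0.189 to 0.461, and CO at 0.638 times OE3. No member was 2-fold apart on the log2 scale, beside 1.91% of all compared genes, though FT at 1.16 and SPL3 at -1.13 were with a pseudocount of 0.5. FT alone reached a ratio of 1.5 upward (6.71% of all compared genes), and CO and SPL3 reached it downward (4.51%). For FT nothing is read from the upward share, since it met the minimum of 1 RPKM through MI12 and MI3 alone.

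The 2 overexpressors OE1 and OE2 differed in CO, SVP and FT. CO was at 5.93 RPKM in OE1 and 3.21 RPKM in OE2, a ratio of 1.85 with an interval of 1.69 to 2.02. SVP was at 15.3 RPKM in OE1 and 23.8 RPKM in OE2, a ratio of 0.642 with an interval of 0.621 to 0.663, and FT had a ratio of 0.593. No member was 2-fold apart, beside 0.956% of all compared genes, with CO past 1.5 upward (2.55%) and FT and SVP downward (4.74%). MI12 was set against the mean of OE1 and OE2, the lines in which one of its targets was raised. The other target was below WT in each, with PTB2 at 0.636 times WT in OE1 and PTB1 at 0.687 times WT in OE2. SVP was at 9.12 RPKM in MI12 and 19.5 RPKM in that mean, a log2 difference of -1.02, and was the one member 2-fold apart, beside 0.793% of all compared genes either way and 0.513% lower. FT, at 2.00 times the mean, and SPL3, at 1.55 times, reached the ratio of 1.5 upward (5.25% of all compared genes), and AGL24 and SVP downward (3.79%). The upward share says nothing for FT, since MI12 and MI3 alone brought FT to the minimum of 1 RPKM.

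The 3 members with the widest range over the 6 genotypes were CO, SVP and SPL3, at 1.34, 1.29 and 1.18 on the log2 scale. Each was set beside 13816 genes of at least 5 RPKM in 2 genotypes, and likeness was the root mean square distance between profiles centred on their own mean. Nearest to CO were CRF2 (distance 0.084), the ethylene-forming enzyme gene EFE (0.092) and PLC8 (0.097), where CO itself varied about its mean by 0.405. EFE was at 306 RPKM in MI12 and 170 in MI3, and at 507 in OE1, 264 in OE2 and 271 in OE3, against 339 RPKM in WT. Nearest to SVP were UMAMIT46 (0.124), DEG14 (0.127) and AT1G04800 (0.149), and nearest to SPL3 were MCCA (0.104), UGE1 (0.106) and FK (0.112). With 6 columns and so many candidates such neighbours are a description only.

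Since PTB proteins bind pyrimidine-rich RNA, the longest unbroken run of C and T on the sense strand was read from the introns of each member. It is shown for the 3 members with the longest runs, and capitals mark CTCTCT.
AP1 intron: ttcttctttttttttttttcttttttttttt
AGL24 intron: tCTCTCTttCTCTCTCTCTCT
SVP intron: tcttcttctcttttttttt
The AP1 run (chr1:25984938-25984968) has 31 bases, and 0.7% of 16056 compared genes with introns hold one as long, or 1.8% of the 1884 with a similar total of intron bases. The AGL24 run (chr4:12673796-12673816) has 21 bases, a length reached in 7.2% of all those genes and in 14% of those with a similar total of intron bases. The SVP run (chr2:9582361-9582379) has 19 bases, with 12.3% and 25.9%. The runs of the other 7 members were 9 (CO and SPL3) to 18 (SOC1) bases long, and 86.2% of the genes hold one of 9 or more. Such a run is a description of the sequence and not a binding site.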

How the data were processed

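The authors deposited 1 table of RPKM values for 33602 genes with 1 column per genotype. Per the submitters' processing notes, reads were placed on TAIR10. The alignment, the counting, any use of strand and the merging of libraries are steps not given in the sources used here. One WT cell holding no number was set to 0. Reads were recovered from the low RPKM values the authors deposited, which lie on steps of 1 read per gene span: 66.7% (MI3) to 75.5% (OE3) of low values were whole to within 0.1, against 20% by chance. For genes with introns this share was 63.9% to 72.8% with the span, introns included, as length and 17.1% to 20.6% with the exon length. Coordinates, lengths and sequences come from RefSeq TAIR10.1. Values were compared as log2(RPKM + 1) among genes of at least 1 RPKM in 2 columns, with a difference of 1 counted as 2-fold. The fixed design named limma tests where a column per library existed; with 1 column per genotype there is no test. Ratios carry 95% exact binomial intervals on recovered reads, which cover counting error only. The genes named are the 10 members, the 3 PTB genes, and of 9 lists of 93 flowering genes those past 2-fold or else the 2 of widest range. Other list genes given by value (FD, MAF1, TEM1, AGL42, MIR156C and the SPL genes besides SPL3 and SPL5) were named after their values were seen. The members and lists were chosen with earlier results of these data known. Steps were tested on simulated data. Tools were scipy 1.17.1, numpy 2.4.6, pandas 2.3.3 and matplotlib 3.10.9 under Python 3.11.15. The ratio of 1.5 and the lengths by exon were chosen after seeing the data.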

Additional observations from a re-analysis of the deposited data

How the results depend on the processing

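Results were recomputed with median-of-ratios scaling, with scaling that leaves out organelle and ribosomal RNA genes, with pseudocounts of 0.1 and 0.5, with all genes kept or only those of 5 RPKM in 2 columns, and with WT replaced by the median of the other 4 lines. No paired analysis was possible because the table has 1 column per genotype, and leaving out a replicate was not run for the same reason. Both scalings kept all 24 counts within 1.5 times. With median-of-ratios scaling the members at a ratio of 1.5 in MI3 against WT went from 4 to 3. Of those 4, SVP lay nearest to that ratio, at 1.57 times WT. With a pseudocount of 0.1 the genes 2-fold apart from WT numbered 223 in MI12 and 1431 in MI3, with 420 in OE1, 227 in OE2 and 403 in OE3, and 635 between MI3 and OE3, 361 between OE1 and OE2 and 373 between MI12 and the OE1 and OE2 mean; 2 members were then past 2-fold in MI3 against WT and 2 in MI3 against OE3. With 0.5 they numbered 151 in MI12 against WT, 136 in OE2 against WT and 235 in MI12 against the OE1 and OE2 mean, with 2 members past 2-fold between MI3 and OE3. Against the median of the other lines, 335 genes were 2-fold apart in OE1 and 75 in OE3. Members at a ratio of 1.5 became 0 in MI12, 1 in MI3, 0 in OE1 and 0 in OE3 against WT with the filter of 5 RPKM, which leaves SVP and SOC1, and 0 between MI3 and OE3, 1 between OE1 and OE2 and 1 for MI12 against the OE1 and OE2 mean. Without a filter, which adds FUL, TSF, AP1 and LFY, they became 4 in OE2 and 3 in OE3 against WT, 6 between MI3 and OE3 and 5 between OE1 and OE2. All 13 member differences from WT of at least 0.3 on the log2 scale kept their sign against the median of the other lines, where 11 of 30 in all, each smaller than that, did not. TSF, AP1 and LFY are limited by depth to at most 20 reads a genotype.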
